A study of Mus musculus with 34 samples.

Results

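The genes described here are 10 listed genes of the vascular endothelium and of the VEGF and angiopoietin signals that maintain it, out of 23509 genes in each count table. They are the ligands *Vegfa*, *Angpt1* and *Angpt2*, the receptors *Kdr*, *Flt1* and *Tek*, and the endothelial genes *Pecam1*, *Emcn*, *Ehd3* and *Plvap*. They were taken from a fixed list of names, and all 10 were among the 15644 genes with enough reads to be tested. Polyadenylated kidney RNA was sequenced from 34 mice on the C57BL6 background, killed on postnatal day (P)28. *Pkd2*-KO mice, which develop polycystic kidneys, were injected under the skin with RGLS4326 (n = 11, 20 mg/kg per dose) or phosphate-buffered saline (PBS, n = 11), with doses on P10, P11, P12 and again on P19. Untreated wildtype mice (UNT, n = 12) carried neither the mutation nor any injection, so PBS vs UNT compares genotype and injection together. RGLS4326 is an inhibitor of the microRNA miR-17, a modified oligonucleotide that pairs with the seed of miR-17. The labels write the genotype as Pdk2KO. The study describes its *Pkd2*-KO model as carrying a floxed *Pkd2* allele and a Pkhd1/cre transgene, a driver active in renal tubular epithelium, so whole kidney also holds cells that keep the gene.

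VEGF-A is a secreted growth factor that in the kidney is made mainly by podocytes and tubular epithelium and acts on nearby capillaries. It signals through the receptor tyrosine kinase VEGFR2, encoded by *Kdr*, while VEGFR1, encoded by *Flt1*, binds it tightly and acts largely as a decoy. Angiopoietin-1, made by cells around the vessel, activates the receptor TIE2, encoded by *Tek*, and keeps endothelium quiescent, whereas angiopoietin-2 is a context-dependent antagonist of TIE2 released by endothelial cells. PECAM-1 joins endothelial cells to each other throughout the vasculature, endomucin (*Emcn*) is a sialoglycoprotein of capillaries and veins, EHD3 is a membrane-traffic protein that in the kidney marks glomerular endothelium, and PLVAP forms the diaphragms of fenestrae and marks peritubular capillaries.

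In the kidney libraries, 17603122 to 54981992 reads fell in genes, and the members had from 254 reads (*Angpt1*) to 17977 reads (*Vegfa*) per library. The numbering in the deposited tables restarts within the series, giving 3 library sets that each held all groups. UNT libraries stood apart in their share of reads not uniquely aligned, at 22.8 to 25.7% against 14.8 to 19.4% in both *Pkd2*-KO groups, so this share and the genotype cannot be told apart. The share of reads assigned to no gene was 9.84 to 11.3% in UNT, 5.18 to 8.995% in PBS and 4.94 to 12.0% in RGLS4326 mice. *Pkd2*, the gene that the study describes as deleted, averaged 274 ± 34.4 CPM in UNT (SD, n = 12), 160 ± 32.2 in PBS (n = 11) and 210 ± 23.8 in RGLS4326 mice (n = 11). *Pdk2*, the gene spelled in the labels, encodes a mitochondrial kinase and averaged 266 ± 39.9, 118 ± 20.9 and 116 ± 26.1 CPM in the same order, a larger fall than that of *Pkd2*, so these levels alone do not tell which gene was deleted. All 10 fixed endothelial markers, 7 of them members, had reads in every library.

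The oligonucleotide is directed at the miR-17 family, so the mature sequences that share its target are shown with the seed, bases 2 to 8, in capitals (RefSeq, GRCm38.p6). The family has 6 entries in this table with an identical seed, encoded on chromosomes 5, 14 and X.
mmu-miR-17-5p: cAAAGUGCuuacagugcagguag
mmu-miR-20a-5p: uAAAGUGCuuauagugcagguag
mmu-miR-93-5p: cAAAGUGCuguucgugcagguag
mmu-miR-106a-5p: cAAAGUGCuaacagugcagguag
mmu-miR-106b-5p: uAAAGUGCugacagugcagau
mmu-miR-20b-5p: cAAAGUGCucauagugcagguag

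A match to the seed in the 3′ untranslated region, taken from the protein-coding transcript with the longest one, was searched on the transcribed strand as GCACTTT or CACTTTA (GENCODE M21, GRCm38). Among the members, 2 of 10 held a match, *Ehd3* and *Vegfa*, against 21.2% of 14190 tested genes with such a region. Neither match was of the longest type, GCACTTTA, which 4.26% of those genes hold. Both sites are shown with their flanks on the transcribed strand, the match in capitals, because they are the matches found among the members in this search, which covered neither the rest of the transcript nor shorter matches.
Ehd3, chr17:73831228-73831257, plus strand: agcagggttagGCACTTTctatgtattagt
Vegfa, chr17:46018678-46018707, minus strand: ctcttcgaggaGCACTTTgggtccggaggg
A match is a description of these letters, and the other 8 members have none in the region searched.

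Of the 10 members, 8 differed between PBS and UNT kidneys at an adjusted p under 0.05, 1 higher and 7 lower. The share was near the background, since 82.1% of all tested genes differed in this comparison, 43.1% higher and 39% lower in PBS. The median log2 fold change of the members was -0.52, against 0.04 over all tested genes. After RGLS4326, 7 members were higher than in PBS, none was lower and 3 did not pass, where 33.8% of all tested genes passed, 15.3% higher and 18.5% lower. The median of the members was 0.28, against 0.00 over all tested genes. Against UNT, RGLS4326 kidneys differed in 5 members, 1 higher and 4 lower, below the background of 77.7% (40.8% higher and 36.9% lower). PBS vs UNT and RGLS4326 vs PBS share the PBS mice, so the values of both comparisons are given side by side without a test between them. The adjusted p-values of group comparisons are Benjamini-Hochberg adjusted over all tested genes from the quasi-likelihood test of edgeR. Those of correlations come from permutations and are named so. Levels are CPM, the read count of a gene scaled to the TMM-normalised library size. In whole kidney, fewer cells of a type and less RNA per cell cannot be told apart. Scaling by library size alone moved the median of all genes in PBS vs UNT from 0.04 to 0.33. Under it the members split 1 higher and 6 lower in PBS vs UNT and 5 higher and 2 lower in RGLS4326 vs UNT, and all tested genes split 8970 higher and 4099 lower in PBS vs UNT and 9148 higher and 3471 lower in RGLS4326 vs UNT.

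**Figure D1:**
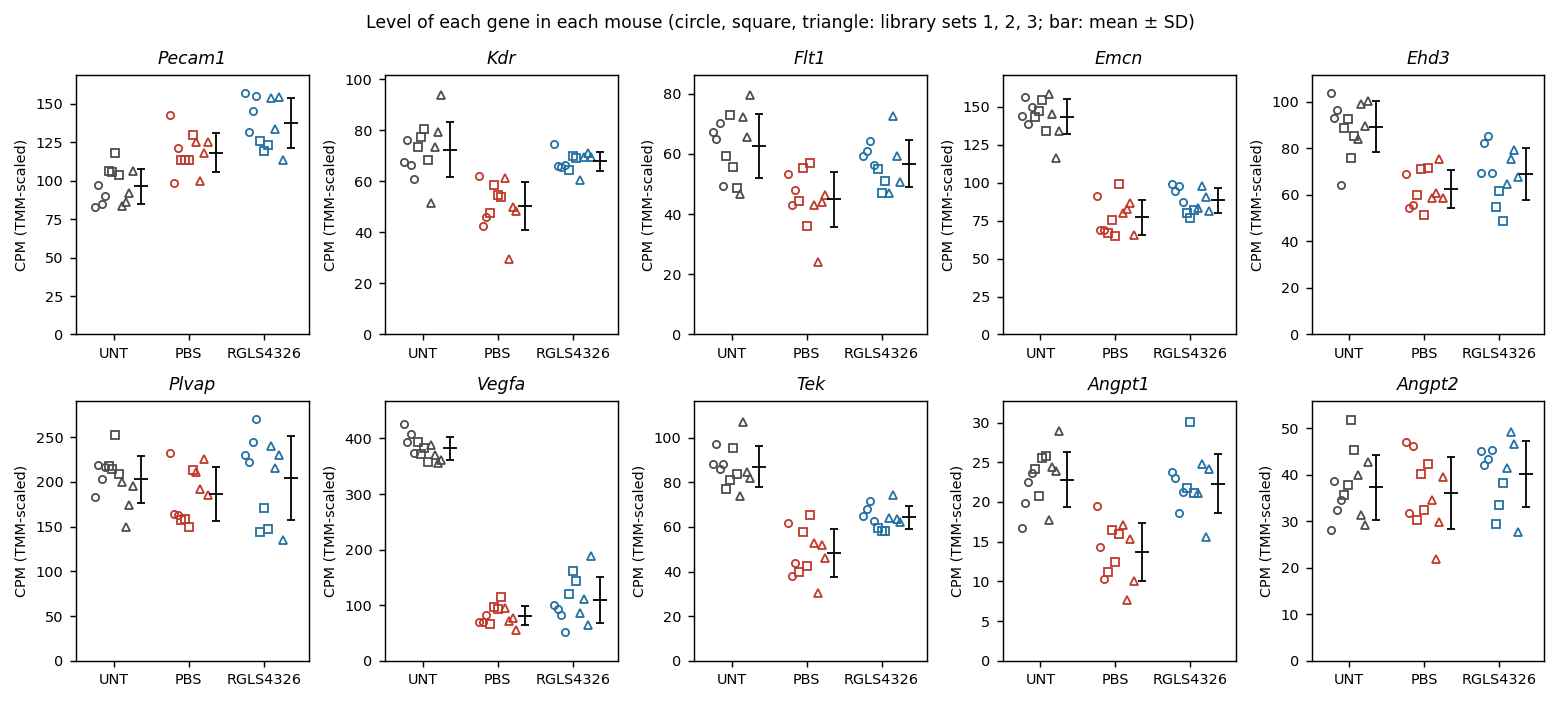
Level of each member (CPM after TMM scaling, linear axis from 0) in each of the 34 mice, by group; circles, squares and triangles mark library sets 1, 2 and 3, and bars are the mean ± SD. Every PBS and RGLS4326 mouse lies below every UNT mouse for *Vegfa* and *Emcn*, and 10 of 11 RGLS4326 mice lie above every PBS mouse for *Kdr*.

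Among the ligands, *Vegfa* (chromosome 17, 46016993 to 46032369, GRCm38) had the largest difference of any member. It ranged from 356 to 427 CPM in UNT mice around a median of 378, from 55.4 to 115 in PBS mice around 77.1, and from 52.5 to 189 in RGLS4326 mice around 101. No mouse of either *Pkd2*-KO group reached the UNT range, which was the case for 42.5% of all genes in one direction or the other in PBS vs UNT and for 36.7% in RGLS4326 vs UNT. The fitted log2 fold change was -2.23 ± 0.15 (SE) in PBS vs UNT (adjusted p = 6.59e-16), a level 0.213 of that in UNT. It was -1.43 with the share of no-gene reads as a covariate and -1.25 with the non-unique share, and still passed (adjusted p = 7.14e-14 and 0.000877). After RGLS4326 *Vegfa* was 0.43 ± 0.15 higher than in PBS (adjusted p = 0.0236), with 9 of 11 treated mice above the PBS median and 1 below every PBS mouse. That difference did not pass without RGLS4326 replicate 6 (0.36, adjusted p = 0.0581) or 11 (0.32, adjusted p = 0.0651), or with only those groups fitted (0.44, adjusted p = 0.0629). It was still below UNT (log2 fold change -1.80 ± 0.15, adjusted p = 1.89e-13), and the value was -0.85 with the non-unique share as a covariate (adjusted p = 0.0179). The treated group was also the most dispersed, with an SD of 41.4 CPM against 17.2 in PBS and 21.3 in UNT.

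The *Vegfa* level followed the share of reads assigned to no gene within each *Pkd2*-KO group. With group means subtracted, Pearson's r was 0.89 over 34 mice (adjusted permutation p = 0.0001 over the 10 members, the smallest the resamples can give) and Spearman's rho 0.84 (adjusted p = 0.0001), and r was 0.85 without the 2 mice farthest from the median share. An r of at least that size in either direction was found for 98 of 15644 tested genes, or 0.626%, and the median size over all genes was 0.34. Taken by group, r was 0.95 in RGLS4326 mice (rho 0.97, permutation p = 1e-05, n = 11), 0.74 in PBS mice (rho 0.88, permutation p = 0.00898, n = 11) and 0.05 in UNT mice (rho 0.11, permutation p = 0.886, n = 12), where the share varied little. The corresponding adjusted p-values over the 3 groups were 3e-05, 0.0135 and 0.886, and r without the 2 farthest mice was 0.94, 0.76 and 0.04. With the share as a covariate the difference between RGLS4326 and PBS was -0.05 (adjusted p = 0.724), and -0.07 (adjusted p = 0.654) when only those groups were fitted. The only other member whose level followed the share was *Plvap*, in the opposite direction (r = -0.68, rho = -0.56, adjusted permutation p = 0.0018 and 0.0192, and r = -0.61 without the 2 farthest mice).

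**Figure D2:**
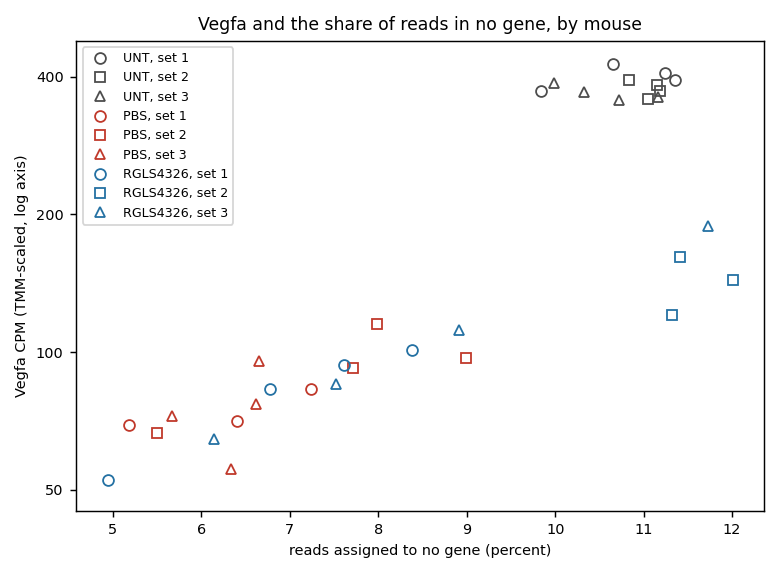
*Vegfa* level (CPM, log axis) against the percent of reads assigned to no gene, 1 symbol per mouse, colored by group and shaped by library set. PBS and RGLS4326 mice rise together along 1 band from 4.94 to 12.0% of reads, and UNT mice form a separate cluster near the top at 9.84 to 11.3%.

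*Angpt1* (chromosome 15, 42424723 to 42676977) fell in PBS kidneys and rose after RGLS4326, when 1 of 11 mice lay above every UNT mouse and 1 below. UNT mice had 16.8 to 29.0 CPM around a median of 23.8, PBS mice 7.69 to 19.5 around 14.3, and RGLS4326 mice 15.6 to 30.1 around 21.8. In PBS, 9 of 11 mice lay below every UNT mouse, and after RGLS4326, 9 of 11 lay above every PBS mouse. The log2 fold change was -0.74 ± 0.12 in PBS vs UNT (adjusted p = 8.70e-07) and 0.71 ± 0.12 in RGLS4326 vs PBS (adjusted p = 0.000608), the largest treatment difference of any member and 36th among all tested genes by p. Against UNT it was -0.03, with a 95% confidence interval of -0.27 to 0.21 (adjusted p = 0.807). By library size alone this value turned to 0.27 and passed (adjusted p = 0.0412). The fall in PBS was -0.44 by library size alone (adjusted p = 0.00144) and did not pass with the non-unique share as a covariate (-0.66, adjusted p = 0.0715). An exon of the antisense gene *Gm17473* overlaps 653 bases of *Angpt1* exon, and the strand setting of the counting was not stated, so the source strand of those reads is uncertain.

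*Angpt2* (chromosome 8, 18690263 to 18741562, within the gene *Mcph1*) did not pass in any comparison in the fit of all mice without covariates. Its levels were 28.1 to 51.7 CPM in UNT around a median of 36.7, 21.8 to 47.0 in PBS around 34.5 and 27.7 to 49.1 in RGLS4326 mice around 42.0, and the 3 groups overlapped over most of their ranges. The log2 fold changes were -0.05 (95% confidence interval -0.28 to 0.18) in PBS vs UNT, 0.16 (-0.08 to 0.40) in RGLS4326 vs PBS and 0.11 (-0.12 to 0.34) in RGLS4326 vs UNT, with adjusted p = 0.681, 0.282 and 0.390. In library set 1 alone *Angpt2* was 0.28 higher in PBS than in UNT, and in library set 2 alone it was 0.09 lower in RGLS4326 than in PBS. RGLS4326 vs UNT passed in set 1 alone (0.36, adjusted p = 0.0187) and by library size alone (0.40, adjusted p = 0.00247), and was -0.35 in set 2 alone (adjusted p = 0.0652).

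Both VEGF receptors fell in PBS and rose after RGLS4326. *Kdr* (chromosome 5, 75932827 to 75978458) had 51.4 to 93.7 CPM in UNT around a median of 73.4, 29.5 to 62.1 in PBS around 49.9, and 60.6 to 74.6 in RGLS4326 mice around 69.2. The treated mice were the least dispersed group, with an SD of 3.76 CPM against 9.40 in PBS and 10.7 in UNT, and 10 of 11 lay above every PBS mouse. *Kdr* fell by 0.52 on the log2 scale in PBS vs UNT (log2 fold change -0.52 ± 0.09, adjusted p = 1.46e-06) and rose by 0.43 ± 0.09 in RGLS4326 vs PBS (adjusted p = 0.00203). RGLS4326 and UNT kidneys differed by -0.09 (95% confidence interval -0.27 to 0.08, adjusted p = 0.334).

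*Flt1* (chromosome 5, 147561604 to 147726011) had 46.8 to 79.5 CPM in UNT around a median of 65.3, 24.2 to 56.96 in PBS around 44.2, and 46.9 to 72.7 after RGLS4326 around 56.3. All 11 treated mice were above the PBS median, but only 5 were above every PBS mouse. Its log2 fold change was -0.48 ± 0.11 in PBS vs UNT (adjusted p = 9.27e-05), 0.34 ± 0.11 in RGLS4326 vs PBS (adjusted p = 0.0183) and -0.15 in RGLS4326 vs UNT (95% confidence interval -0.36 to 0.07, adjusted p = 0.205). With the no-gene share as a covariate the treatment difference did not pass for *Kdr* (0.38, adjusted p = 0.0579) or *Flt1* (0.33, adjusted p = 0.135), and in set 2 alone that of *Flt1* was 0.09 (adjusted p = 0.690). The fall of *Flt1* in PBS did not pass by library size alone (-0.18, adjusted p = 0.0892), in set 2 alone (-0.33, adjusted p = 0.0617) or with the non-unique share as a covariate (-0.47, adjusted p = 0.138), and by library size alone that of *Kdr* was -0.23 (adjusted p = 0.0216). Scaled by library size alone, the RGLS4326 vs UNT values turned to 0.21 for *Kdr*, which then passed as higher than UNT (adjusted p = 0.0308), and 0.16 for *Flt1*, which did not (adjusted p = 0.130).

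*Tek* (chromosome 4, 94739289 to 94874976), the angiopoietin receptor, separated PBS from UNT completely. Such a separation was found for 42.5% of all tested genes in that comparison, in one direction or the other. UNT mice had 74.1 to 107 CPM around a median of 85.4, PBS mice 30.6 to 65.5 around 46.2, and RGLS4326 mice 58.2 to 74.2 around 63.5. All 11 treated mice were above the PBS median while 10 of 11 still lay below every UNT mouse. The log2 fold change was -0.85 ± 0.09 in PBS vs UNT (adjusted p = 5.98e-11), 0.42 ± 0.09 in RGLS4326 vs PBS (adjusted p = 0.00258) and -0.44 ± 0.09 in RGLS4326 vs UNT (adjusted p = 3.16e-05). By library size alone PBS vs UNT was -0.56 (adjusted p = 3.67e-07). RGLS4326 vs UNT did not pass by library size alone (-0.13, adjusted p = 0.155), in set 3 alone (-0.40, adjusted p = 0.0517) or with the non-unique share as a covariate (-0.48, adjusted p = 0.0679).

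*Pecam1* (chromosome 11, 106654217 to 106750628) was the only member that was higher in PBS than in UNT. It had 83.1 to 118 CPM in UNT around a median of 94.6, 98.4 to 143 in PBS around 118, and 114 to 157 in RGLS4326 mice around 134. Every PBS and RGLS4326 mouse was above the UNT median, and 10 of 11 RGLS4326 mice were above every UNT mouse. The log2 fold change was 0.30 ± 0.07 in PBS vs UNT (adjusted p = 0.000216), 0.22 ± 0.07 in RGLS4326 vs PBS (adjusted p = 0.0192) and 0.51 ± 0.07 in RGLS4326 vs UNT (adjusted p = 2.85e-08). When the non-unique share entered the model as a covariate, the values were -0.09 in PBS vs UNT (adjusted p = 0.647) and 0.11 in RGLS4326 vs UNT (adjusted p = 0.584). Nor did PBS vs UNT pass with the no-gene share (0.13, adjusted p = 0.239) or in set 2 alone (0.09, adjusted p = 0.266), or RGLS4326 vs UNT in set 2 alone (0.16, adjusted p = 0.0679). By library size alone the values were 0.58 in PBS vs UNT (adjusted p = 2.64e-09) and 0.81 in RGLS4326 vs UNT (adjusted p = 1.32e-12).

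*Emcn* (chromosome 3, 137341067 to 137432185) was the endothelial surface gene with the largest fall. UNT mice had 116 to 159 CPM around a median of 145, PBS mice 65.1 to 98.9 around 75.6 and RGLS4326 mice 77.0 to 99.5 around 87.1, and no mouse of either *Pkd2*-KO group reached the UNT range. Group ranges did not overlap for 42.5% of all tested genes in PBS vs UNT and for 36.7% in RGLS4326 vs UNT. The log2 fold change was -0.90 ± 0.07 in PBS vs UNT (adjusted p = 1.65e-14), 0.19 ± 0.07 in RGLS4326 vs PBS (adjusted p = 0.0287) and -0.70 ± 0.07 in RGLS4326 vs UNT (adjusted p = 1.19e-11), the last being -0.40 by library size alone (adjusted p = 1.69e-06). Although all 11 treated mice were above the PBS median, the treatment difference did not pass with the no-gene share as a covariate (0.25, adjusted p = 0.0901) or when RGLS4326 replicate 1 or 9 or PBS replicate 2, 4, 6 or 11 was left out, with adjusted p from 0.0515 to 0.0588.

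*Ehd3* (chromosome 17, 73804134 to 73832094), the glomerular endothelial gene, had 64.0 to 104 CPM in UNT around a median of 91.1, 51.3 to 75.5 in PBS around 60.1 and 48.9 to 85.2 after RGLS4326 around 69.4. It fell in PBS vs UNT (log2 fold change -0.52 ± 0.08, adjusted p = 8.88e-07) and was still lower in RGLS4326 vs UNT (-0.37 ± 0.08, adjusted p = 0.000145). The treatment difference of 0.14 did not pass (95% confidence interval -0.03 to 0.32, adjusted p = 0.181). The difference from UNT after RGLS4326 did not pass by library size alone (-0.07, adjusted p = 0.400) or in set 1 alone (-0.25, adjusted p = 0.131), and by library size alone PBS vs UNT was -0.22 (adjusted p = 0.00988).

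*Plvap* (chromosome 8, 71497765 to 71511752) did not pass in any comparison in the fit of all mice without covariates. Its levels spanned 149 to 253 CPM in UNT around a median of 206, 149.6 to 232 in PBS around 185 and 135 to 269.9 in RGLS4326 mice around 222. The treated mice fell on both sides of the PBS range, with 3 below and 3 above every PBS mouse. The log2 fold changes were -0.12 (95% confidence interval -0.34 to 0.09), 0.13 (-0.09 to 0.35) and 0.01 (-0.20 to 0.22) in PBS vs UNT, RGLS4326 vs PBS and RGLS4326 vs UNT, with adjusted p = 0.285, 0.340 and 0.934. When the no-gene share entered the model, *Plvap* was 0.58 lower in PBS than in UNT (log2 fold change -0.58, adjusted p = 7.44e-05), and RGLS4326 vs UNT was -0.25 (adjusted p = 0.0162). The non-unique share gave -0.76 and -0.67 (adjusted p = 0.0058 and 0.0211), set 2 alone -0.43 and -0.56 (adjusted p = 0.00561 and 0.00229), and RGLS4326 vs UNT was 0.30 by library size alone (adjusted p = 0.00922).

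**Figure D3:**
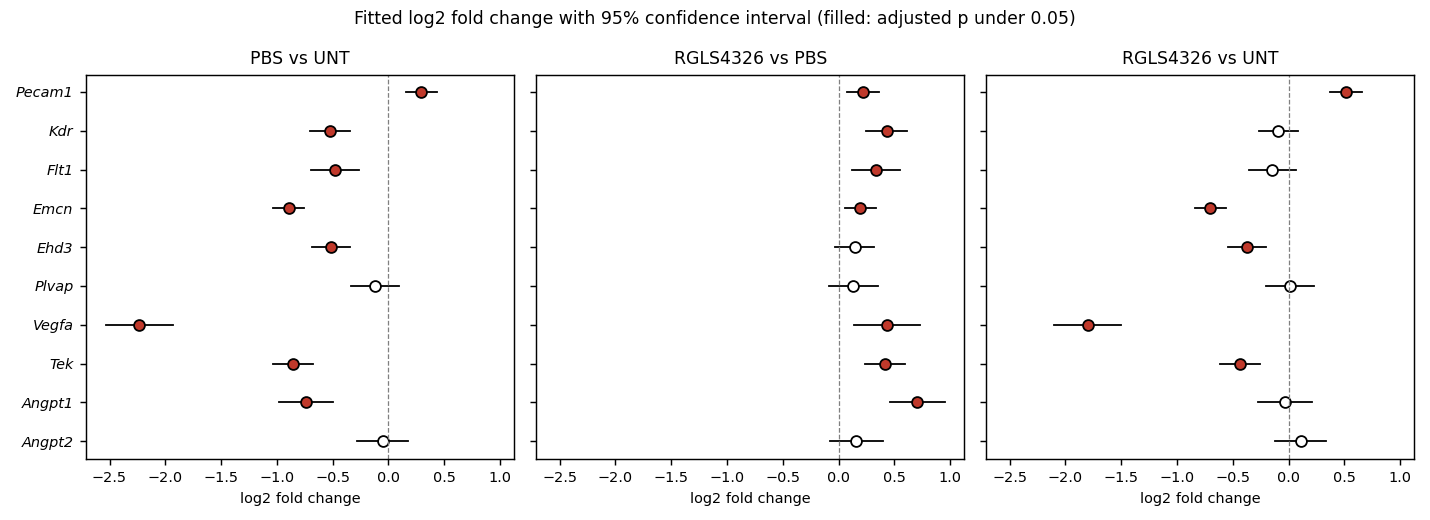
Fitted log2 fold change of each member with its 95% confidence interval in the 3 comparisons, on a shared axis; filled points passed an adjusted p under 0.05. *Vegfa* lies far to the left of the other members in both comparisons with UNT, and all 10 points lie to the right of 0 in RGLS4326 vs PBS.

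In RGLS4326 vs PBS no member separated the groups completely, which 0.0639% of all tested genes did. Mean differences on the log2 scale were above 0 for 10 of 10 members in library set 1, 7 in set 2 and 9 in set 3, with medians of 0.35, 0.09 and 0.44. The members below 0 were *Ehd3*, *Plvap* and *Angpt2* in set 2 and *Plvap* in set 3. *Angpt1* differed by 0.60, 0.80 and 0.82 in the 3 sets, *Kdr* by 0.46, 0.34 and 0.56, and *Tek* by 0.51, 0.23 and 0.57. The other called members varied more between sets. *Pecam1* differed by 0.30, 0.06 and 0.24, *Emcn* by 0.33, 0.08 and 0.17, *Flt1* by 0.33, 0.10 and 0.57, and *Vegfa* by 0.11, 0.63 and 0.49. Fitted alone with edgeR, set 1 gave 0 members called (8 at an unadjusted p under 0.05), set 2 gave 3 (*Kdr*, *Vegfa* and *Angpt1*) and set 3 gave 0 (5 at an unadjusted p under 0.05), where 54, 4065 and 0 of all tested genes were called. At an unadjusted p under 0.05 were 3421 of 15737, 6361 of 15944 and 2826 of 15676 tested genes.

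The share of reads in no gene moved with treatment, and most in set 2, where it was 11.3 to 12.0% in the 3 RGLS4326 mice and 5.49 to 8.995% in the 4 PBS mice. With this share as a covariate, 3 members were called in RGLS4326 vs PBS, *Pecam1*, *Tek* and *Angpt1*, and 89 of all tested genes (0.569%). With only the PBS and RGLS4326 mice in that fit, edgeR called 0 members (8 at an unadjusted p under 0.05) and 20 of all tested genes (0.131%). There, 3118 of 15233 tested genes had an unadjusted p under 0.05. The values of 9 members stayed above 0 in that fit, from 0.24 for *Ehd3* to 0.59 for *Angpt1*, with *Vegfa* at -0.07. In PBS vs UNT, library sets 1, 2 and 3 alone called 8, 7 and 8 members, near the 72.5%, 71.4% and 64.8% of all tested genes called there, and *Vegfa* (-2.43, -2.05 and -2.32), *Emcn* (-0.96, -0.94 and -0.82) and *Tek* (-0.94, -0.74 and -0.96) differed by similar amounts in sets 1, 2 and 3.

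Ratios of read counts within a library need no scaling between libraries. Per read of *Pecam1*, *Tek* had 0.726 to 1.24 reads in UNT mice (median 0.905), 0.307 to 0.508 in PBS mice (median 0.386) and 0.404 to 0.555 in RGLS4326 mice (median 0.475). Every *Pkd2*-KO mouse was therefore below every UNT mouse, and every treated mouse above the PBS median. *Kdr* per read of *Pecam1* showed the same order, with medians of 0.759, 0.423 and 0.501 in UNT, PBS and RGLS4326 mice, and the ranges were 0.615 to 0.882, 0.296 to 0.516 and 0.394 to 0.613, so that RGLS4326 and UNT mice all but met. The denominator moved as well, since *Pecam1* was higher in both *Pkd2*-KO groups. *Emcn* per read of *Pecam1* had medians of 1.504, 0.641 and 0.645, and *Ehd3* of 0.949, 0.529 and 0.513, with 6 and 4 of 11 treated mice above the PBS median. *Vegfa* per *Pecam1* read was 3.25 to 5.14 in UNT, 0.444 to 0.887 in PBS and 0.339 to 1.66 in RGLS4326 mice, so here too no *Pkd2*-KO mouse reached the UNT range. Separation from UNT was less complete for the remaining 4 ratios to *Pecam1*. *Flt1* per *Pecam1* read was below every UNT mouse in 10 of 11 PBS and 10 of 11 RGLS4326 mice, *Plvap* in 9 and 10, *Angpt1* in 11 and 9 and *Angpt2* in 6 and 9.

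The ratio of the ligand *Vegfa* to its receptor *Kdr* was 3.86 to 7.56 in UNT mice (median 5.19), 1.12 to 2.45 in PBS mice (median 1.65) and 0.792 to 2.71 in RGLS4326 mice (median 1.42). Here the treated and PBS mice overlapped, with 4 of 11 treated mice above the PBS median. The ratio of the receptors, *Kdr* to *Flt1*, had medians of 1.18, 1.08 and 1.20, with all 3 groups overlapping. *Angpt1* to *Angpt2* had a median of 0.637 in UNT (0.445 to 0.821), 0.385 in PBS (0.223 to 0.516) and 0.529 after RGLS4326 (0.335 to 0.901). It was below every UNT mouse in 8 of 11 PBS mice, and 10 of 11 treated mice were above the PBS median.

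**Figure D4:**
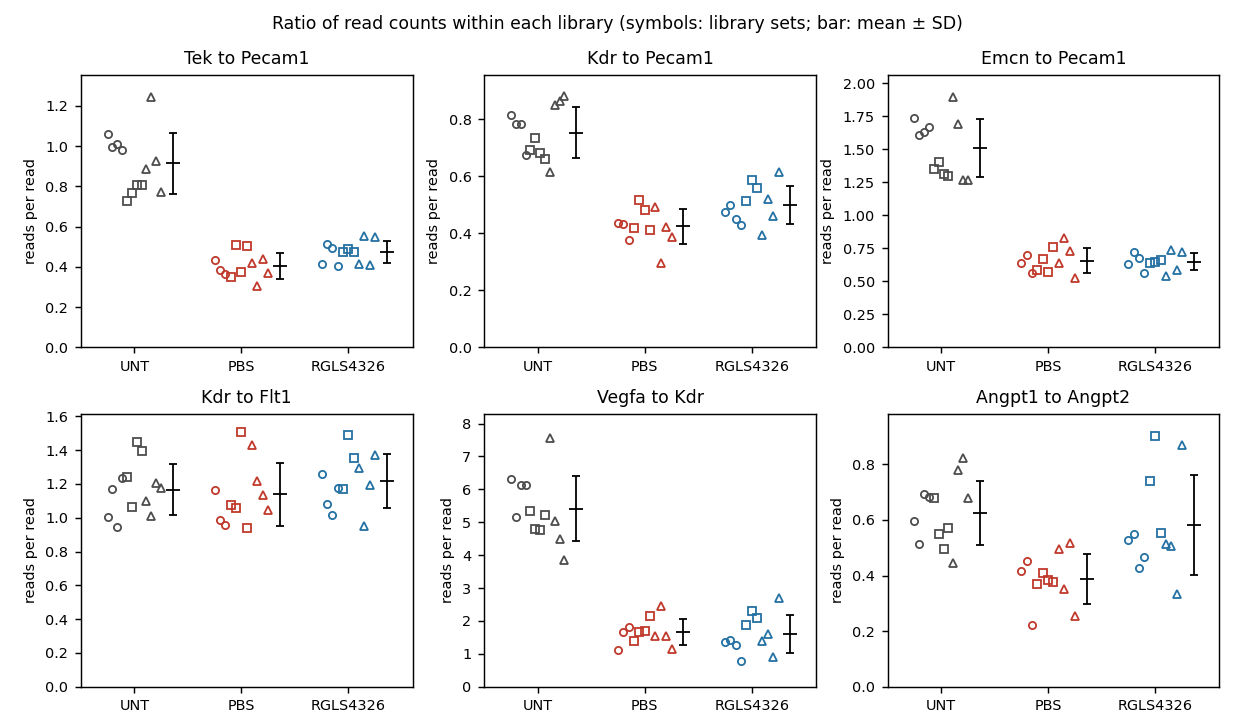
Ratio of the read counts of a pair of members within each library (reads per read, axes from 0), by group; symbols mark library sets and bars are the mean ± SD. The plotted ratios of *Tek*, *Kdr* and *Emcn* to *Pecam1* and of *Vegfa* to *Kdr* separate UNT from both other groups, *Kdr* to *Flt1* overlaps in all groups, and *Angpt1* to *Angpt2* is lowest in PBS (median 0.385).

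Levels can be compared between genes only per length, and CPM per kilobase of exon (GENCODE M21) was used for this. The lengths are approximate for these tables, since the annotation used for counting was not stated. In UNT kidneys *Vegfa* (108 ± 6.05, SD) and *Plvap* (102 ± 13.1) were highest, with a difference within the sum of their SDs. They were followed by *Emcn* (55.5 ± 4.57), then *Ehd3* (24.4 ± 3.03) and *Pecam1* (23.3 ± 2.76), which were within that sum, *Tek* (18.5 ± 1.95), *Kdr* (12.2 ± 1.81) and *Angpt2* (10.5 ± 1.96), which were within it, and *Flt1* (5.72 ± 0.976) and *Angpt1* (5.36 ± 0.825), which were also within it. In PBS kidneys *Plvap* (93.8 ± 15.1) stood alone at the top, and *Vegfa* (23.1 ± 4.87) had dropped to the 4th place, within the sum of SDs of *Pecam1* above it (28.6 ± 3.10) and of *Ehd3* below it (17.1 ± 2.21). After RGLS4326 the order was that of PBS except that *Kdr* (11.5 ± 0.634) stood above *Angpt2* (11.3 ± 1.997) and *Angpt1* (5.24 ± 0.862) above *Flt1* (5.17 ± 0.713), and within each of these pairs the difference was within the sum of SDs.

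Among mice of the same group some pairs of members varied together. After subtraction of group means, 19 of 45 pairs were correlated over the 34 mice at an adjusted permutation p under 0.05, 17 positively and 2 negatively. The median r over the 45 pairs was 0.33. The share of such pairs among other genes was not computed, so the count cannot be read as a trait of these members. The strongest pair was *Pecam1* with *Angpt2* (r = 0.76, rho = 0.75, adjusted permutation p = 0.000225 and 0.00015, 0.78 without the 2 mice farthest from the median of *Pecam1*). *Pecam1* with *Plvap* was next (r = 0.70, rho = 0.72, adjusted permutation p = 0.000225 and 0.00015, 0.72 without the 2 farthest mice). *Flt1* with *Tek* gave r = 0.69 (rho = 0.55, adjusted permutation p = 0.0006 and 0.0083, 0.53 without the 2 farthest mice). *Kdr* with *Flt1* gave r = 0.68 (rho = 0.39, adjusted permutation p = 0.00244 and 0.0933, 0.51 without the 2 farthest mice), the rank correlation not passing. *Kdr* with *Angpt1*, a receptor of one pathway and a ligand of the other, gave r = 0.67 (rho = 0.56, adjusted permutation p = 0.00117 and 0.0083, 0.58 without the 2 farthest mice). *Vegfa* was negatively correlated with *Plvap* (r = -0.56, rho = -0.46, adjusted permutation p = 0.0215 and 0.0641) and with *Pecam1* (r = -0.44, rho = -0.39, adjusted permutation p = 0.027 and 0.0933), the rank correlation not passing for either, and r was -0.45 for each without the 2 farthest mice. *Vegfa* and its main receptor *Kdr* were not correlated at this threshold (r = 0.16, rho = 0.23, adjusted permutation p = 0.337 and 0.280). When the mean of each group within each library set was subtracted instead, r was 0.72 for *Pecam1* with *Angpt2*, 0.70 for *Pecam1* with *Plvap*, 0.67 for *Flt1* with *Tek*, 0.71 for *Kdr* with *Flt1*, 0.65 for *Kdr* with *Angpt1* and -0.36 for *Vegfa* with either *Plvap* or *Pecam1*, and 11 pairs passed. Neither negative pair was among them (adjusted permutation p = 0.384 and 0.231), and without the 2 farthest mice the pair with *Plvap* did not pass either (adjusted permutation p = 0.0622).

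**Figure D5:**
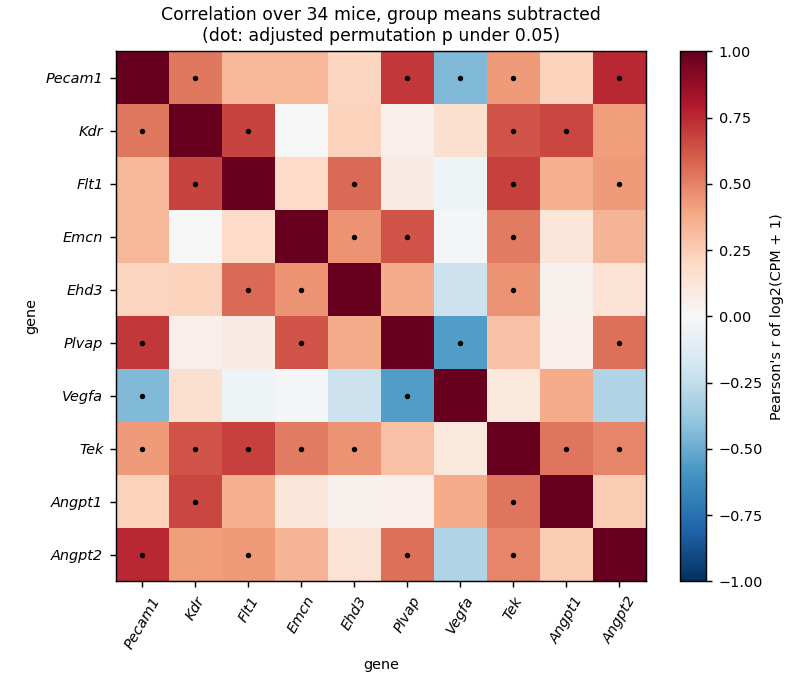
Pearson's r of log2(CPM + 1) between members over the 34 mice after subtraction of group means, red positive and blue negative; dots mark pairs with an adjusted permutation p under 0.05. *Tek* is positively correlated with most endothelial members, and the only dots on blue cells are those of *Vegfa* with *Pecam1* and with *Plvap*.

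The other genes of these pathways and of endothelium in general were taken from a panel of 58 genes in 11 lists, of which 56 were tested. In PBS vs UNT, 30 were higher, 13 lower and 13 did not pass, and in RGLS4326 vs PBS 11 were higher, 9 lower and 36 did not pass. In RGLS4326 vs UNT 38 were higher and 9 lower. The 43, 20 and 47 panel genes of 56 that passed compare with 82.1%, 33.8% and 77.7% of all tested genes, so in each comparison the share was near the background. By direction, 43.1% of all tested genes were higher and 39% lower in PBS vs UNT. The shares were 15.3% and 18.5% in RGLS4326 vs PBS and 40.8% and 36.9% in RGLS4326 vs UNT. The lists below hold few genes each and were not tested as sets. In RGLS4326 vs PBS, no panel gene passed in edgeR with the no-gene share as a covariate (0 called, 27 at an unadjusted p under 0.05), and 0, 6 and 0 passed in library sets 1, 2 and 3 alone (22, 15 and 12 unadjusted). Over all tested genes the unadjusted counts were 3199 of 15644 with the covariate and 3421, 6361 and 2826 in the sets. The treatment differences of panel genes given here are from the fit without covariates. Scaled by library size alone, the split was 40 higher and 4 lower in PBS vs UNT and 47 higher and 3 lower in RGLS4326 vs UNT.

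Of the 7 other VEGF ligands and receptors, 6 were higher in PBS than in UNT and 1 was lower. *Pgf*, placental growth factor, a ligand of VEGFR1, rose by 1.72 ± 0.12 on the log2 scale (adjusted p = 3.12e-15) and *Figf*, encoding VEGF-D, by 0.99 ± 0.07 (adjusted p = 1.30e-14). *Vegfb*, another VEGFR1 ligand, fell (log2 fold change -0.23 ± 0.08, adjusted p = 0.0106). After RGLS4326, 2 of these genes were higher, the co-receptor *Nrp1* (0.29 ± 0.08, adjusted p = 0.0110) and *Flt4*, the receptor of VEGF-C and VEGF-D (0.23 ± 0.08, adjusted p = 0.0225), and *Vegfb* was lower again (-0.36 ± 0.08, adjusted p = 0.00391). In the list of 4 further angiopoietin-Tie genes, *Tie1*, the orphan partner of TIE2 (-0.29 ± 0.06, adjusted p = 1.43e-05), and *Ptprb*, the phosphatase that restrains TIE2 (-0.23 ± 0.10, adjusted p = 0.0417), were lower in PBS, and *Svep1* (1.60 ± 0.12, adjusted p = 3.05e-14) and *Angpt4* (0.67 ± 0.15, adjusted p = 0.000117) were higher. *Ptprb* (0.46 ± 0.11, adjusted p = 0.00334) and *Tie1* (0.15 ± 0.06, adjusted p = 0.0489) were higher after RGLS4326, as *Tek* was. Of 5 genes that control *Vegfa* under hypoxia, *Egln3*, a prolyl hydroxylase (2.04 ± 0.12, adjusted p = 2.63e-17), and *Vhl* (0.41 ± 0.05, adjusted p = 1.30e-08) were higher in PBS, and *Hif1a*, *Epas1* and *Arnt* did not pass (0.04, -0.10 and 0.01). After RGLS4326 *Egln3* was lower (-0.37 ± 0.12, adjusted p = 0.0193) and *Epas1* higher (0.18 ± 0.07, adjusted p = 0.0435).

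Pan-endothelial genes moved in both directions. Of 16, 5 were higher in PBS, including *Cd34* (0.48 ± 0.06, adjusted p = 8.17e-09) and the junction gene *Cdh5* (0.50 ± 0.08, adjusted p = 1.54e-06), 6 were lower, including *Robo4* (-0.35 ± 0.06, adjusted p = 1.96e-06) and *Egfl7* (-0.58 ± 0.10, adjusted p = 2.44e-06), and 5 did not pass. After RGLS4326, 4 were higher, led by *Ptprb* and the transcription factor *Erg* (0.31 ± 0.10, adjusted p = 0.0206), none was lower and 12 did not pass. Both tested genes of the glomerular endothelial list were lower in PBS, *Gata5* (-1.90 ± 0.15, adjusted p = 1.38e-13) and *Plat* (-0.24 ± 0.09, adjusted p = 0.0134), and neither passed after RGLS4326 (0.16 and 0.21). All 4 adhesion genes of activated endothelium were higher in PBS, led by *Icam1* (2.57 ± 0.09, adjusted p = 3.68e-24) and *Selp* (5.22 ± 0.20, adjusted p = 7.83e-23), and after RGLS4326 only *Selp* was lower (-0.45 ± 0.16, adjusted p = 0.0261). *Icam1* is also expressed by epithelium and *Selp* by platelets.

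Of 6 tip cell and sprouting genes, 4 were higher in PBS, led by *Pdgfb* (1.69 ± 0.09, adjusted p = 2.91e-19) and *Unc5b* (1.31 ± 0.08, adjusted p = 1.31e-16), and after RGLS4326 *Cxcr4* (-0.38 ± 0.12, adjusted p = 0.0152) and *Pdgfb* (-0.24 ± 0.09, adjusted p = 0.0293) were lower. Of 7 arterial genes, *Efnb2* (1.33 ± 0.07, adjusted p = 2.59e-18) and *Dll4* (0.42 ± 0.09, adjusted p = 5.20e-05) were higher in PBS and *Sox17* (-1.17 ± 0.10, adjusted p = 9.29e-13) and *Gja4* (-0.20 ± 0.09, adjusted p = 0.0382) lower. After RGLS4326, *Sox17* (0.46 ± 0.10, adjusted p = 0.00323) and *Bmx* (0.28 ± 0.10, adjusted p = 0.0331) were higher and *Efnb2* was lower (-0.19 ± 0.07, adjusted p = 0.0434). Of 4 venous genes 3 were higher in PBS, led by *Darc* (3.07 ± 0.33, adjusted p = 1.31e-10) and *Ephb4* (0.53 ± 0.06, adjusted p = 1.02e-09), and *Nr2f2* was lower (-0.15 ± 0.06, adjusted p = 0.0314). After RGLS4326 *Nr2f2* was higher (0.24 ± 0.06, adjusted p = 0.00857) and *Darc* lower (-0.71 ± 0.28, adjusted p = 0.0475).

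Lymphatic and mural genes were listed because their cells lie beside blood endothelium. Of 4 tested lymphatic genes, *Pdpn* (3.41 ± 0.13, adjusted p = 5.45e-23) and *Lyve1* (3.01 ± 0.25, adjusted p = 2.86e-13), which are also found on other stromal cells and on macrophages, and *Flt4* were higher in PBS, and *Prox1*, the lymphatic transcription factor, was lower (-1.15 ± 0.18, adjusted p = 5.00e-07). After RGLS4326 *Prox1* (0.63 ± 0.18, adjusted p = 0.0112) and *Flt4* were higher and *Pdpn* (-0.57 ± 0.12, adjusted p = 0.00224) and *Lyve1* (-1.09 ± 0.24, adjusted p = 0.00289) lower. Of 8 mural cell and pericyte genes 5 were higher in PBS, led by *Acta2* (2.16 ± 0.11, adjusted p = 1.41e-19) and *Pdgfrb* (1.11 ± 0.10, adjusted p = 9.10e-13), and *Myh11* was lower (-0.48 ± 0.12, adjusted p = 0.000621). After RGLS4326 the pericyte genes *Rgs5* (0.84 ± 0.15, adjusted p = 0.000934) and *Kcnj8* (0.24 ± 0.09, adjusted p = 0.0329) were higher, and *Des* was lower (-0.33 ± 0.10, adjusted p = 0.0133).

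Markers of other kidney and blood cells moved in the same comparisons, and their part in the values above was not tested. The summed level of 6 macrophage genes was 88.5 to 166 CPM in UNT, 611 to 1699 in PBS and 546 to 1098 in RGLS4326 mice, and all 6 were higher in PBS than in UNT. The 4 T cell genes summed to 0.483 to 1.47, 3.13 to 17.0 and 2.41 to 5.24 CPM in the same order, and the 5 fibroblast genes to 354 to 969, 2058 to 4430 and 2858 to 4295. The 4 platelet genes, which can share *Pecam1* with endothelium, summed to 7.06 to 11.5, 12.9 to 29.1 and 11.3 to 16.1 CPM, with *Gp9* at 0 in some mice of every group. Of the 3 that were tested, *Pf4* (3.51, adjusted p = 3.13e-20) and *Ppbp* (3.01, adjusted p = 1.92e-12) were higher in PBS than in UNT and *Itga2b*, the platelet integrin subunit, was lower (-1.04, adjusted p = 6.71e-12). The 6 podocyte genes, whose cells make *Vegfa*, summed to 604 to 751 CPM in UNT, 403 to 499 in PBS and 449 to 537 after RGLS4326, with 2 higher and 4 lower in PBS. In RGLS4326 vs PBS, 4 podocyte genes were higher and 1 lower, and 1 fibroblast gene was higher. In that comparison 4 macrophage, 4 T cell and 2 platelet genes were lower and none of these lists had a higher gene. The 5 proximal tubule genes, all lower in PBS and all higher again after RGLS4326, summed to 8034 to 11660, 700.5 to 2429 and 1678 to 2795 CPM. The 3 thick ascending limb genes summed to 5869 to 9501, 2249.8 to 4371 and 3381 to 4977 CPM, and the 3 principal cell genes to 304 to 569, 335 to 1520 and 207 to 1302. Of the 4 red cell genes *Hbb-bt* had no read in any library, and the others summed to at most 45.2 CPM in UNT, 14.1 in PBS and 13.5 in RGLS4326 mice. The 10 endothelial markers summed to 849 to 1022 CPM in UNT, 671 to 929 in PBS and 763 to 1006 in RGLS4326 mice, so the groups overlapped in their total.

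The genes whose levels most resembled each member among mice of the same group were sought over 14173 other tested genes with a mean of at least 1 CPM, by the same r over 34 mice, as a description without a test. *Pecam1* was closest to the endothelial genes *Cdh5* (r = 0.84), *Mmrn2* (0.83) and *Flt4* (0.79), *Flt1* to *Cyyr1* (0.89), *Ptprb* (0.88) and *Rapgef2* (0.87), and *Angpt2* to *Mmrn2* (0.76), *Adamtsl1* (0.74) and *Cmip* (0.73). *Tek* was closest to *Eltd1* (0.80), *Ptprd* (0.80) and *Lepr* (0.79). *Kdr* was closest to *Casr* (0.87), *Lama2* (0.85) and *Stard4* (0.85), and *Angpt1* to *Stard4* (0.83), *Slc12a1* (0.81) and *Cd164* (0.80). *Casr* and *Slc12a1* are known from the thick ascending limb, whose markers are given above. *Emcn* (*Cldn15*, 0.81, *Cldn11*, 0.72, and *Fxyd2*, 0.69) and *Plvap* (*Cldn15*, 0.83, *Prss8*, 0.80, and *Pex14*, 0.78) shared their closest gene. *Ehd3* was closest to *6430548M08Rik* (0.83), *Usp2* (0.81) and *Herpud1* (0.80), and *Vegfa* to *AI450353*, *Ogt* and *Ggnbp1* (0.92 each).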

How the data were processed

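RNA was profiled in kidneys of 34 mice. Per the labels and the methods of the study, stranded mRNA libraries were sequenced on an Illumina NextSeq, checked with FastQC (version 0.11.2), trimmed with TrimGalore, aligned with STAR to GRCm38 (mm10) and counted over genes with HTSeq (version 0.6.1), with SAMtools (version 1.1) and Picard (version 1.119) also listed in the submitters' processing notes. The deposited values are raw counts per gene symbol, 1 table per mouse, and the authors did not normalize or pool them. The annotation and strand setting are not given in the sources used here. Counts without a gene (4.94 to 12.0% of reads in no gene, for example) were left out of library sizes.

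Counts were scaled by TMM, filtered with filterByExpr and compared by edgeR's quasi-likelihood F-test (edgeR version 4.0.16, under R version 4.3.3) in a single fit of 3 groups without covariates, two-sided, with Benjamini-Hochberg adjustment over 15644 genes. Standard errors are the size of the log2 fold change divided by the square root of F. Correlations used log2(CPM + 1) and 100000 permutations within groups, two-sided. Tested on simulated data for RGLS4326 vs PBS over 15570 genes, the test recovered 98 of 100 genes changed by 1 on the log2 scale and 81 of 100 changed by 0.5, with 13 false among 192 calls. The simulated counts held no library sets and no differences in the share of no-gene reads, so these rates apply to such data only. Alternatives were other scalings, no filter, DESeq2 (version 1.42.0), library sets, a replicate block, quality covariates and each mouse left out. The members and lists were chosen with earlier results of these data known. All 10 members are named, and of each list the 2 genes with the smallest p in each direction among those that passed. Values of *Hif1a*, *Epas1*, *Arnt*, *Gata5* and *Plat* that did not pass were added after they were seen. For genes of like pattern, the 3 with the highest r were taken. The p-values of edgeR set a group difference against the spread between mice, and permutation p-values set a correlation against reshuffled mice of the same group. The correlations with the no-gene share, the fit with it in PBS and RGLS4326 mice alone and the test of library sets against group were chosen after seeing the data.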

Additional observations from a re-analysis of the deposited data

How the results depend on the processing

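Of the 10 members, 8 were called in PBS vs UNT and 5 in RGLS4326 vs UNT without any 1 mouse, and 6 to 7 in RGLS4326 vs PBS. Calls among the panel ranged over 40 to 44, 45 to 48 and 13 to 26 in these comparisons, lowest for RGLS4326 vs PBS without PBS replicate 2 (13, against 20). *Vegfa* in RGLS4326 vs PBS did not pass without RGLS4326 replicate 6 (adjusted p = 0.0581) or 11 (adjusted p = 0.0651) in edgeR's test, nor with only those groups fitted (adjusted p = 0.0629). The treatment comparison depended most on the libraries. In library sets 1, 2 and 3 alone it called 0, 3 and 0 members (8, 3 and 5 at an unadjusted p under 0.05 in edgeR) and 0, 6 and 0 panel genes (22, 15 and 12 unadjusted). With the no-gene share as covariate it called 3 members and 0 panel genes (8 and 27 unadjusted), and with only PBS and RGLS4326 in that fit, chosen after seeing the data, 0 and 0 (8 and 29 unadjusted). The cause was not tested. With the non-unique share as covariate the panel had 27 calls in PBS vs UNT (against 43) and 25 in RGLS4326 vs UNT (against 47), where the share of all tested genes called fell to 46.9% and 46.8%. A group by library set interaction, also chosen after seeing the data, was called for 0 genes by edgeR (2858 in PBS vs UNT and 1126 in RGLS4326 vs PBS at an unadjusted p under 0.05). Correlated pairs of members numbered 11 with group and library set means subtracted and 13 without the 2 farthest mice, against 19.

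Signs turned for these log2 fold changes. In PBS vs UNT, *Pecam1* was -0.094 with the non-unique share as covariate, *Plvap* 0.17 by library size only and 0.18 in set 3, and *Angpt2* 0.23 by library size only and 0.28 in set 1, with a range of -0.095 to 0.00016 over mice left out. In RGLS4326 vs PBS, *Ehd3*, *Plvap* and *Angpt2* were -0.19, -0.13 and -0.090 in set 2, and *Vegfa* -0.054 and -0.073 in the 2 fits with the no-gene share. In RGLS4326 vs UNT by library size only, *Kdr*, *Flt1* and *Angpt1* were 0.21, 0.16 and 0.27, and *Kdr* and *Angpt1* passed. *Angpt1* was 0.039 in set 1, 0.0047 with the replicate block, 0.076 with the no-gene share and 0.047 with the non-unique share, and -0.084 to 0.011 over mice left out. *Angpt2* was -0.35 in set 2 and -0.31 with the non-unique share. *Plvap*, near 0, was -0.026 with RLE size factors, -0.024 without a filter, -0.027 with only the groups compared, -0.014 with library set as covariate, -0.56 in set 2, -0.016 with the replicate block, -0.25 with the no-gene share, -0.67 with the non-unique share, -0.024 in DESeq2 and -0.037 to 0.059 over mice left out.

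Replicate numbers did not pair the mice. The correlation of same-numbered deviations was -0.21 to 0.41 between PBS and RGLS4326 mice, over 0.1 in 5 of 11 pairs, and 1 of 11 correlated best with its own number. With the replicate block 8, 7 and 5 members were called in PBS vs UNT, RGLS4326 vs PBS and RGLS4326 vs UNT, the counts found without it.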
